A study of Mus musculus with 20 samples.

Results

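The Ikaros family is a set of 5 zinc finger transcription factor genes, Ikzf1 (Ikaros), Ikzf2 (Helios), Ikzf3 (Aiolos), Ikzf4 (Eos) and Ikzf5 (Pegasus). The members were chosen by symbol, and all 5 were found among the 16740 genes of the spleen and peripheral lymph node (pLN) count table and among the 16784 genes of the mesenteric lymph node (mLN) count table. Poly(A) RNA was sequenced from sorted CD4+ T cells of C57BL/6 mice aged 14 weeks. WT mice carried Foxp3Cre, a YFP-Cre fusion knocked into the Foxp3 gene, and DKO mice carried Foxp3Cre together with loxP-flanked Tet2 and Tet3, so that all groups shared the Cre allele and deletion was directed to cells that express Foxp3. YFP+ cells are called Treg cells and YFP- cells CD4+Foxp3- cells. The deletion was not aimed at the latter, which in DKO mice are a mixture of bystander T cells with intact genes and cells that once expressed Foxp3. There were 2 libraries per group from pooled spleen and pLNs (8 in all) and 3 per group from mLN (12 in all).

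Ikaros family proteins bind DNA through N-terminal zinc fingers and pair with each other through C-terminal zinc fingers. Ikaros, Helios and Aiolos recruit chromatin complexes such as NuRD, and the levels of the members differ between lymphoid lineages. Helios and Eos are best known in T cells for their high levels in Treg cells, where Eos is a partner of Foxp3 in gene silencing, while Aiolos is known from B cells and from several effector and follicular T cell states. TET2 and TET3 oxidise 5-methylcytosine, mostly at CpG sites, and Tet2 and Tet3 were the deleted genes.

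Each library held between 9998478 and 15449158 reads assigned to genes, and the fewest reads counted for a member in any library were 21 (Ikzf4 in a DKO CD4+Foxp3- library). Foxp3, the defining gene of the sort, lay between 153 and 419 CPM (read counts scaled to a common library size) in Treg libraries and between 0.211 and 2.75 CPM in CD4+Foxp3- libraries. The summed CPM of 6 B cell markers was between 2.69 and 73.5 that of 6 myeloid markers between 2.84 and 54.3 and that of 3 NK cell markers between 8.77 and 219, against 3659 to 6105 for 5 T cell markers. Plasma cell markers, 3 of 4 of which were in the tables, summed to 16.2 to 123 CPM in DKO and 3.72 to 5.53 CPM in WT libraries of spleen and pLNs, and to at most 67.1 and 2.13 CPM in mLN. Reads over the whole Tet2 and Tet3 genes were counted, including exons outside the loxP sites, so they do not check the deletion. Tet2 was at 7.69 to 12.8 CPM in the DKO Treg libraries of mLN against 10.4 to 10.8 CPM in WT, and Tet3 at 48.4 to 73.3 against 69.0 to 86.5 CPM; in spleen and pLNs, Tet2 was at 2.05 and 8.01 CPM against 1.11 and 2.08 CPM, and Tet3 at 38.1 and 61.0 against 30.6 and 31.0 CPM.

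The family lies on 4 chromosomes. In NCBIM37 (the mm9 assembly) with GENCODE M1, Ikzf1 spans chr11:11585006-11672929 on the plus strand, Ikzf2 chr1:69577788-69732534, Ikzf3 chr11:98326216-98407345, Ikzf4 chr10:128067899-128083047 and Ikzf5 chr7:138532166-138554035, the last 4 on the minus strand. Reads were counted over exons. No exact 50-base stretch of the coding transcripts of Ikzf1, Ikzf2, Ikzf3 or Ikzf5 was found in a coding transcript of another gene. The search cannot exclude exchange of reads between genes, because mapping allowed mismatches and exon sequence outside these transcripts was not searched. For Ikzf3, 3609 stretches were searched, beside 8754 exon bases. For Ikzf4, 33 of 6148 such stretches occurred in a transcript of another gene, none of them a family member. Ikzf4 exons also overlap those of Gm17336 on the opposite strand, which the strand-aware counting kept apart.

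RefSeq promoter windows, from 250 bases before to 50 bases after a transcription start in GRCm38.p6, were listed for Ikzf1 and Ikzf5. They are shown with CpG sites in capitals because CpGs are the sites at which TET enzymes act. No methylation value was analysed here. The first Ikzf1 window, chr11:11685675-11685974 on the plus strand, holds 52 CpG sites, a number reached by 0.575% of 32851 promoter windows. The second Ikzf1 window, chr11:11689927-11690226 on the plus strand, holds 2, a number reached by 85.9%, and the Ikzf5 window, chr7:131410429-131410728 on the minus strand, holds 27, reached by 15.5%. The core letters of Ikaros binding, GGGAA, were searched on both strands and occur 0, 2 and 1 times in these windows, and at least once in 62.7% of all promoter windows.
Ikzf1 first start: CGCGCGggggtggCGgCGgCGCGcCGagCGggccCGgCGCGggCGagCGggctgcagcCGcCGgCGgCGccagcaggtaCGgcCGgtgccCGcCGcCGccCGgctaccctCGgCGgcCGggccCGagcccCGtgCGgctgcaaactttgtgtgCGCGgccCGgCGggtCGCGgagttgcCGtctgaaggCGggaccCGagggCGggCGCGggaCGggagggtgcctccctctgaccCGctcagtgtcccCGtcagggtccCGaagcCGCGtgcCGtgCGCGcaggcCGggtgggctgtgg
Ikzf1 second start: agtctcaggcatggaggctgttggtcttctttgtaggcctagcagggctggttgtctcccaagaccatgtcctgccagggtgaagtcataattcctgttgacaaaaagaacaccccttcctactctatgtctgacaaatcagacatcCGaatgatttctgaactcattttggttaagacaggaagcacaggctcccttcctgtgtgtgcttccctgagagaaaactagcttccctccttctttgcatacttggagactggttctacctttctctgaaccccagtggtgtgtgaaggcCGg
Ikzf5: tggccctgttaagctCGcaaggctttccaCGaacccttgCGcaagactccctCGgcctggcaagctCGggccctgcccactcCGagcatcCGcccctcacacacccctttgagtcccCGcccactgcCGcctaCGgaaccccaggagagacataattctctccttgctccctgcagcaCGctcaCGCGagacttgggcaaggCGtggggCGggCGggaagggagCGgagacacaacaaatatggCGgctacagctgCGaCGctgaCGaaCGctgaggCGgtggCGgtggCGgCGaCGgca

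Levels of different genes were compared in TPM, transcript levels that the authors scaled by gene length and library, separately for the 2 tables. Ikzf1 was the member with the highest TPM in all 8 groups, and no library of it overlapped the next member. In WT CD4+Foxp3- cells of mLN, Ikzf1 was at 352, 370 and 378 TPM, followed by Ikzf3 at 60.1 to 69.9 and Ikzf5 at 15.3 to 15.9 TPM. Ikzf2 (4.05 to 5.26 TPM) and Ikzf4 (3.29 to 4.58 TPM) were lowest and overlapped. The order was different in WT Treg cells of mLN, where Ikzf1 at 182 to 196 TPM was followed by Ikzf3 at 143 to 151, Ikzf2 at 54.8 to 63.9, Ikzf4 at 33.5 to 39.4 and Ikzf5 at 15.6 to 18.0 TPM, with no overlap between neighbours. In DKO Treg cells of mLN, 2 pairs of neighbours overlapped: Ikzf3 (66.7 to 105 TPM) with Ikzf2 (57.2 to 82.6 TPM), and Ikzf5 (15.9 to 17.6 TPM) with Ikzf4 (14.3 to 16.5 TPM).

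WT Treg cells of spleen and pLNs had Ikzf1 at 116 and 120 TPM, Ikzf2 at 66.7 and 51.0, Ikzf3 at 37.8 and 38.4, Ikzf4 at 23.7 and 21.1, and Ikzf5 at 13.3 and 13.6 TPM. Ikzf2 thus stood above Ikzf3 there and below it in mLN. Ikzf2 and Ikzf3 overlapped in DKO Treg cells (71.9 and 52.6 against 87.4 and 36.8 TPM). In DKO CD4+Foxp3- cells, Ikzf2 at 36.3 and 6.88 TPM overlapped both Ikzf3 at 19.3 and 26.5 TPM and Ikzf5 at 13.4 and 13.0 TPM.

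Expressed as a share of the summed TPM of the family, Ikzf1 made up 80.0% ± 1.43 (SD, n = 2) of family transcripts in WT CD4+Foxp3- cells of spleen and pLNs and 80.5% ± 0.750 (SD, n = 3) in mLN, against 47.1% ± 2.97 (n = 2) and 41.9% ± 0.997 (n = 3) in WT Treg cells. Ikzf2 and Ikzf4 had larger shares in Treg cells: in mLN, Ikzf2 made up 13.2% ± 0.520 of family TPM in WT Treg cells and 1.03% ± 0.141 in WT CD4+Foxp3- cells, and Ikzf4 8.20% ± 0.557 and 0.842% ± 0.121 (SD, n = 3). In DKO Treg cells of mLN the shares were 49.3% ± 1.76 for Ikzf1, 19.0% ± 3.66 for Ikzf2, 22.9% ± 3.89 for Ikzf3, 4.24% ± 0.456 for Ikzf4 and 4.53% ± 0.341 for Ikzf5 (SD, n = 3). The shares of Ikzf3 and Ikzf4 in these 3 libraries all lay below those of the 3 WT libraries, which were 32.4% to 33.6% and 7.75% to 8.82%. Counts per kilobase of GENCODE exon gave the same order of members in 5 of 8 groups, and put Ikzf3 at 20.1% in place of 33.0% in WT Treg cells of mLN, so that shares depend on the gene lengths used.

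**Figure D1:**
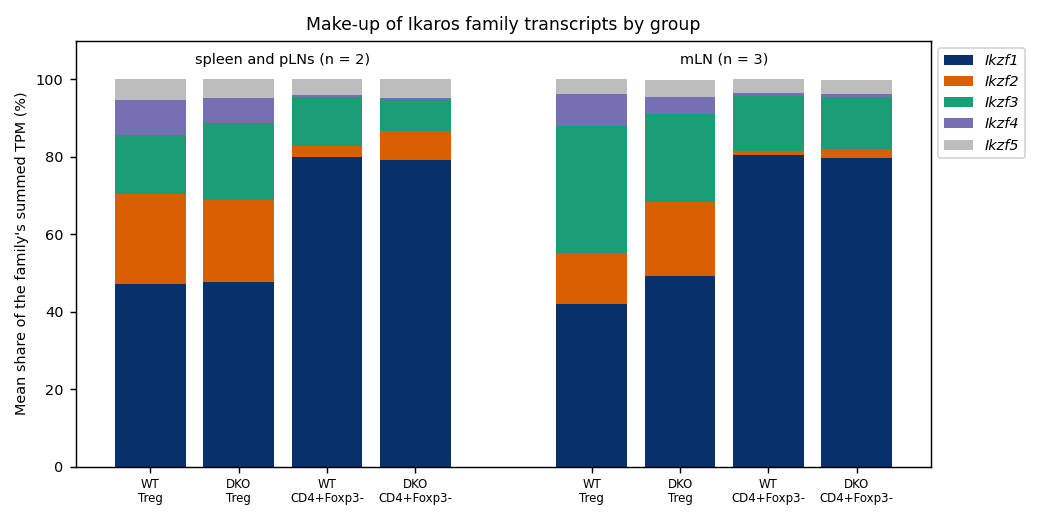
Mean share of the summed TPM of the 5 Ikaros family genes (y axis, percent) in each of the 8 groups, with each bar divided by gene. Ikzf1 fills about 80% of the bars of CD4+Foxp3- cells and 41.9% to 49.3% of the bars of Treg cells.

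The first question was how Treg cells differ from CD4+Foxp3- cells of the same mice. For a gene's own differences, CPM scaled by the trimmed mean of M values were used with edgeR's quasi-likelihood test, and calls needed an adjusted p (Benjamini-Hochberg, over all genes tested) no higher than 0.05 with a fold change of 1.5 or more. In WT mLN, 4 of 5 members were called against 10.1% of all genes: Ikzf2, Ikzf4 and Ikzf3 were higher in Treg cells and Ikzf1 was lower. In WT spleen and pLNs, 3 of 5 were called against 4% of all genes, with Ikzf2 and Ikzf4 higher and Ikzf1 lower. In DKO mice, 3 of 5 were called in mLN (background 11.2%) and 3 of 5 in spleen and pLNs (background 3.77%). In WT mLN, B cell markers summed to 27.4 to 36.4 CPM in Treg against 2.69 to 2.84 in CD4+Foxp3- libraries. Proliferation (113 to 179 against 61.4 to 73.4) and follicular helper genes (225 to 244 against 136 to 178) were also higher. Sums of naive (3074 to 3570 against 6134 to 6469), NK (9.54 to 11.4 against 31.9 to 41.8), myeloid, CD8 and T cell genes were lower. Their part in these differences was not tested.

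Ikzf2, which encodes Helios, had 27.4, 29 and 22.5 CPM in the WT CD4+Foxp3- libraries of mLN and 293, 300 and 321 CPM in WT Treg libraries. The groups were far apart, with a log2 fold change of 3.53 ± 0.19 (SE) or 11.5-fold (edgeR, adjusted p = 2.29e-07). In DKO mice, 36.6, 64.9 and 48.8 CPM in CD4+Foxp3- libraries stood against 364, 320 and 264 CPM in Treg libraries, a log2 fold change of 2.65 ± 0.18 (edgeR, adjusted p = 2.62e-06). In WT spleen and pLNs, Ikzf2 was at 69.0 and 57.6 CPM in CD4+Foxp3- cells and at 425 and 331 CPM in Treg cells (log2 fold change 2.58 ± 0.45, edgeR, adjusted p = 0.00574). This call was lost without WT Treg replicate 1 or 2 (adjusted p = 0.0994 and 0.052) and without WT CD4+Foxp3- replicate 1 or 2 (adjusted p = 0.103 and 0.158), although the log2 fold change stayed between 2.38 and 2.75. It was also lost with filterByExpr (adjusted p = 0.0612), a robust prior (0.175), a replicate block (0.0584) and limma on log2(TPM + 1) (0.204) or log2(TPM + 0.1) (0.155), and kept in the other 4 of 9 settings. In DKO mice, Treg libraries at 324 and 304 CPM lay above CD4+Foxp3- libraries at 178 and 45.4 CPM, and the log2 fold change of 1.49 ± 0.43 was not called (edgeR, adjusted p = 0.0889). Of 9 other settings, 1 called it, DESeq2 (1.47, adjusted p = 0.0334). Without DKO CD4+Foxp3- replicate 1 it was 2.79 (adjusted p = 1.31e-06), and without replicate 2 it was 0.82 (adjusted p = 0.013).

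Ikzf4, which encodes Eos, had the largest fold difference of the 5 members in spleen and pLNs. WT CD4+Foxp3- libraries held 4.63 and 2.89 CPM, from 61 and 36 reads, and WT Treg libraries 57.3 and 52.1 CPM. The log2 fold change was 3.85 ± 0.33, or 14.5-fold (edgeR, adjusted p = 5.79e-05). DKO mice had 1.32 and 3.33 CPM in CD4+Foxp3- and 38.7 and 34.1 CPM in Treg libraries (log2 fold change 3.99 ± 0.34, edgeR, adjusted p = 8.44e-05). In mLN, WT CD4+Foxp3- libraries at 7.23, 7.70 and 9.68 CPM stood below WT Treg libraries at 68.0, 76.7 and 71.4 CPM, 8.81-fold apart (log2 fold change 3.14 ± 0.21, edgeR, adjusted p = 9.34e-07). The difference in DKO mLN was 5.36-fold (log2 fold change 2.42 ± 0.21, edgeR, adjusted p = 1.79e-05). Ikzf4 was the one member called between Treg and CD4+Foxp3- cells in both tissues and both genotypes under every alternative tested, each single library left out included.

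Ikzf1, which encodes Ikaros, ran the other way. WT CD4+Foxp3- libraries of mLN had 1224, 1229 and 1265 CPM and WT Treg libraries 594, 562 and 591 CPM. Treg cells were therefore 2.13-fold lower, with narrow groups (log2 fold change -1.09 ± 0.10, edgeR, adjusted p = 1.25e-05). DKO libraries of mLN had 1148, 863 and 1086 CPM in CD4+Foxp3- cells and 471, 484 and 532 CPM in Treg cells (log2 fold change -1.06 ± 0.10, edgeR, adjusted p = 2.40e-05). In spleen and pLNs, WT CD4+Foxp3- libraries at 936 and 970 CPM stood above Treg libraries at 403 and 427 CPM (log2 fold change -1.20 ± 0.19, edgeR, adjusted p = 0.00349), and DKO libraries at 586 and 821 CPM above 392 and 385 CPM (log2 fold change -0.86 ± 0.19, edgeR, adjusted p = 0.0265). The WT call was lost when any 1 of the 4 libraries was left out: without WT Treg replicate 1 or 2 the adjusted p was 0.127 and 0.0931, and without WT CD4+Foxp3- replicate 1 or 2 it was 0.0591 and 0.0758. The DKO call was lost without DKO Treg replicate 1 or 2 (adjusted p = 0.14 and 0.0753) and with 5 of 9 other settings: filterByExpr (adjusted p = 0.0537), the 2 groups fitted alone (0.317), a replicate block (0.054) and limma on log2(TPM + 1) (0.0733) or log2(TPM + 0.1) (0.0723).

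Ikzf3, which encodes Aiolos, was called higher in Treg cells of WT mLN and of DKO spleen and pLNs. In mLN, WT CD4+Foxp3- libraries at 151, 168 and 155 CPM lay below WT Treg libraries at 333, 334 and 329 CPM (log2 fold change 1.07 ± 0.15, edgeR, adjusted p = 0.000379). In DKO mLN the groups overlapped, with 135, 101 and 145 CPM in CD4+Foxp3- and 156, 137 and 210 CPM in Treg libraries, and the log2 fold change of 0.40 ± 0.15 was not called (edgeR, adjusted p = 0.0878; limma on log2(TPM + 1) called it at 0.61, adjusted p = 0.0183). In WT spleen and pLNs, Treg libraries at 105 and 108 CPM lay just below CD4+Foxp3- libraries at 126 and 112 CPM (log2 fold change -0.16 ± 0.29, edgeR, adjusted p = 0.91, 95% interval -0.79 to 0.47), and in TPM the groups overlapped. In DKO spleen and pLNs, Treg libraries at 172 and 92.6 CPM lay above CD4+Foxp3- libraries at 41.2 and 76.2 CPM, and the log2 fold change of 1.17 ± 0.29 was called by a narrow margin (edgeR, adjusted p = 0.0491). That call was lost in 6 of 9 other settings, among them a replicate block (adjusted p = 0.246), filterByExpr (0.147) and limma on log2(TPM + 1) (0.215), and without DKO Treg replicate 1 (log2 fold change 0.65, adjusted p = 0.458) or DKO CD4+Foxp3- replicate 1 (0.79, adjusted p = 0.0738).

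Ikzf5, which encodes Pegasus, lay between 30.6 and 42.8 CPM in all 20 libraries. Its 4 log2 differences between Treg and CD4+Foxp3- cells ranged from -0.11 to -0.03 and none was called, and in mLN the 95% intervals were -0.23 to 0.15 in WT and -0.30 to 0.08 in DKO.

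**Figure D2:**
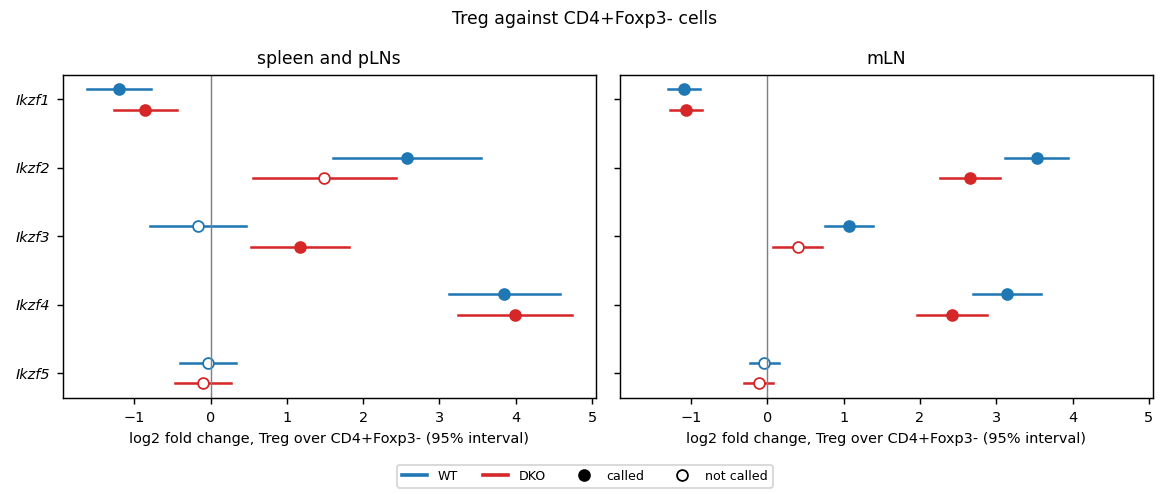
Log2 fold change of Treg over CD4+Foxp3- cells (x axis) for each member in WT (blue) and DKO (red) mice, with 95% intervals from the edgeR fit and filled points for calls. Ikzf4 lies at 2.42 or more and Ikzf1 below 0 in every comparison, while Ikzf3 runs from -0.16 to 1.17.

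The second question was how the family differed between DKO and WT Treg cells. In Treg cells of mLN, 2 of 5 members were called against 11.9% of all genes, and both fell: Ikzf4 and Ikzf3. In Treg cells of spleen and pLNs, 0 of 5 members were called by edgeR, against 1.74% of all genes, and 0 of 5 by DESeq2, against 3.96%, and 0 of 5 had an unadjusted p under 0.05.

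Ikzf4 in mLN Treg cells was at 68.0, 76.7 and 71.4 CPM in WT and at 27.6, 27.8 and 25.1 CPM in DKO libraries. All DKO libraries were below all WT libraries, 2.68-fold on average (log2 fold change -1.42 ± 0.19, edgeR, adjusted p = 0.000397). The same comparison in spleen and pLNs gave 57.3 and 52.1 CPM in WT libraries against 38.7 and 34.1 CPM with the deletion, again without overlap. There the log2 fold change of -0.59 ± 0.28 was not called (edgeR, adjusted p = 0.264, 95% interval -1.20 to 0.03). In TPM the libraries overlapped (23.7 and 21.1 in WT, 22.6 and 15.5 in DKO), and limma on log2(TPM + 1) gave -0.24.

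Ikzf3 in mLN Treg cells was at 333, 334 and 329 CPM in WT and at 156, 137 and 210 CPM in DKO libraries, a 1.98-fold lower mean without overlap (log2 fold change -0.99 ± 0.15, edgeR, adjusted p = 0.00088). In spleen and pLNs, WT libraries at 105 and 108 CPM fell between the DKO libraries at 172 and 92.6 CPM (log2 fold change 0.31 ± 0.29, edgeR, adjusted p = 0.603). Without DKO Treg replicate 1 the sign turned (log2 fold change -0.20, adjusted p = 0.879).

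The mLN calls of Ikzf3 and Ikzf4 held in all 15 alternatives, with log2 fold changes from -1.18 to -0.83 for Ikzf3 and from -1.47 to -1.20 for Ikzf4. The summed CPM of 5 proliferation genes was 323 to 443 in the DKO Treg libraries of mLN against 113 to 179 in WT, that of 6 naive T cell genes 1769 to 2611 against 3074 to 3570, and that of 3 NK cell genes 74.8 to 162 against 9.54 to 11.4. The sums of 4 follicular helper T cell markers (482 to 654 against 225 to 244) and 6 myeloid markers (14.2 to 54.3 against 2.85 to 4.77) were likewise higher in every DKO library, and those of 6 Treg markers (1289 to 1609 against 2020 to 2187, Il2ra among them) and 2 CD8 markers (2.95 to 3.94 against 16 to 20.8) lower. Whether these cells or states had a part in the lower Ikzf3 and Ikzf4 levels was not tested. In sorted cell mixtures, fewer cells with a transcript and less transcript per cell cannot be told apart.

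The other members were not called in Treg cells. Ikzf2 was at 293, 300 and 321 CPM in WT and at 364, 320 and 264 CPM in DKO Treg libraries of mLN, with a 95% interval of the log2 difference from -0.31 to 0.42 around 0.05. Its log2 difference in spleen and pLNs was -0.27 (95% interval -1.18 to 0.65). Ikzf1 differed by -0.23 ± 0.10 in mLN (edgeR, adjusted p = 0.115), with DKO libraries at 471 to 532 CPM below WT libraries at 562 to 594 CPM, and by -0.10 ± 0.19 in spleen and pLNs. Ikzf5 differed by -0.18 ± 0.09 in mLN and -0.29 ± 0.17 in spleen and pLNs. These small differences depend on the scaling: in spleen and pLNs, TPM in place of scaled CPM moved the median of all genes by 0.34 on the log2 scale in this comparison, and Ikzf1 (0.23), Ikzf2 (0.08) and Ikzf5 (0.04) then had a positive sign, uncalled.

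**Figure D3:**
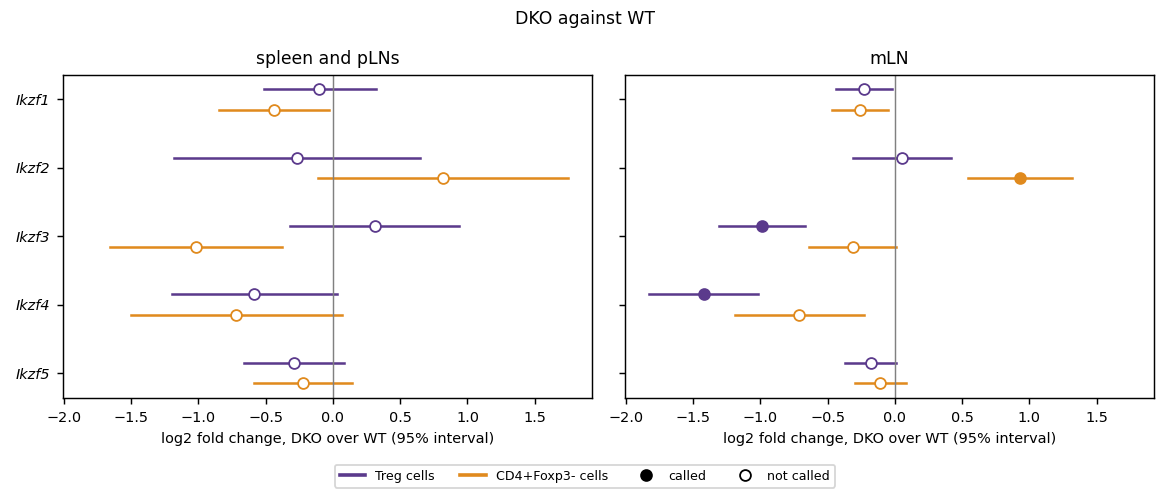
Log2 fold change of DKO over WT (x axis) for each member in Treg cells (purple) and CD4+Foxp3- cells (orange), with 95% intervals from the edgeR fit and filled points for calls. Filled points are Ikzf3 (-0.99) and Ikzf4 (-1.42) in Treg cells and Ikzf2 (0.93) in CD4+Foxp3- cells, all in mLN.

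The third question was whether the family differed in CD4+Foxp3- cells, the cells sorted as YFP- from the same DKO mice. In mLN, 1 of 5 members was called, Ikzf2, against 3.43% of all genes. In spleen and pLNs, 0 of 5 were called by edgeR, against 0.819% of all genes, and 0 of 5 by DESeq2, against 2.3%, although Ikzf1 and Ikzf3 had an unadjusted p under 0.05 (0.0388 and 0.00468).

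In CD4+Foxp3- cells of mLN, Ikzf2 was at 27.4, 29 and 22.5 CPM in WT libraries, and DKO libraries had 36.6, 64.9 and 48.8 CPM. Every DKO library was above every WT library, and the mean rose 1.90-fold (log2 fold change 0.93 ± 0.18, edgeR, adjusted p = 0.016). The call was lost without WT CD4+Foxp3- replicate 1, 2 or 3 (adjusted p = 0.0719, 0.0589 and 0.0823), when the 2 groups were fitted alone (adjusted p = 0.117) and with limma on log2(TPM + 1) (0.113) or log2(TPM + 0.1) (0.0557). Ikzf4 was at 7.23, 7.70 and 9.68 CPM in WT and at 6.03, 2.89 and 6.28 CPM in DKO libraries, lower in each but not called (log2 fold change -0.71 ± 0.22, edgeR, adjusted p = 0.102). DESeq2 called it (adjusted p = 0.031), as did edgeR without DKO CD4+Foxp3- replicate 1 (adjusted p = 0.0352). Ikzf1 (-0.26 ± 0.10, edgeR, adjusted p = 0.158), Ikzf3 (-0.31 ± 0.15, adjusted p = 0.283) and Ikzf5 (-0.11 ± 0.09, adjusted p = 0.56) were not called in these cells. Foxp3, which would mark Treg cells carried over in the sort, was at 2.75, 0.211 and 1.33 CPM in DKO replicates 1, 2 and 3 against 1.35 to 1.62 CPM in WT. All 6 Treg markers together, Foxp3 included, summed to 174 to 350 CPM in DKO against 129 to 136 CPM in WT, and 2 of 6 were called higher. The sums of 5 proliferation genes (107 to 138 against 61.4 to 73.4 CPM, 4 of 5 called higher) and 3 NK cell genes (53.8 to 141 against 31.9 to 41.8 CPM) were also higher in every DKO library, as were those of 6 B cell markers (3.28 to 16.5 against 2.69 to 2.84 CPM) and of the plasma cell markers (2.39 to 67.1 against 1.6 to 2.13 CPM). Those of 6 naive T cell genes (3779 to 6128 against 6134 to 6469 CPM) and 2 CD8 markers (5 to 10.1 against 21.5 to 23.3 CPM) were lower in each. Their part in the Ikzf2 difference was not tested.

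The DKO CD4+Foxp3- libraries differed most among themselves in spleen and pLNs. Ikzf2 was at 178 CPM in replicate 1 and 45.4 CPM in replicate 2, on either side of 69.0 and 57.6 CPM in WT. In replicate 1, Ikzf3 (41.2 CPM), Ikzf4 (1.32 CPM) and Ikzf1 (586 CPM) were each lower than in replicate 2 (76.2, 3.33 and 821 CPM). Il21, a cytokine of follicular helper T cells, was at 234 CPM in replicate 1 and 52.4 in replicate 2, against 44.6 and 40.2 CPM in WT, and Cxcr5, their homing receptor, at 301 and 105 against 217 and 151 CPM.

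In mLN, the DKO CD4+Foxp3- library with the highest Ikzf2 (64.9 CPM, replicate 2) also had the lowest Ikzf1 (863 CPM), Ikzf3 (101 CPM) and Ikzf4 (2.89 CPM) of its group. Il21 was at 139 CPM in it, at 18.8 and 101 CPM in replicates 1 and 3 and at 11.4 to 18.9 CPM in WT, and Cxcr5 was at 193, against 60.1 and 108 CPM, and 52.2 to 71.2 CPM in WT. The summed CPM of all 4 follicular helper T cell markers ranged from 183 to 605 in DKO and from 136 to 178 in WT CD4+Foxp3- libraries of mLN, and from 312 to 1066 against 347 to 476 in spleen and pLNs. Their part in the Ikzf2 level was not tested.

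Over both replicates in spleen and pLNs, the log2 fold changes were -0.44 ± 0.19 for Ikzf1 (edgeR, adjusted p = 0.348), 0.82 ± 0.43 for Ikzf2 (0.462), -1.02 ± 0.29 for Ikzf3 (0.134), -0.72 ± 0.36 for Ikzf4 (0.438) and -0.22 ± 0.17 for Ikzf5 (0.662). The calls depended on which library was left out. Without DKO CD4+Foxp3- replicate 2, 4 of 5 members were called: Ikzf2 at 1.49 (adjusted p = 5.36e-05), Ikzf3 at -1.53 (0.00178), Ikzf4 at -1.51 (0.00668) and Ikzf1 at -0.70 (0.00811), each a log2 fold change from edgeR with a single DKO library assumed to vary like the other groups. In that fit 2751 genes of all were called in place of 134, or 16.9%. Without replicate 1, none of the 5 was called and the log2 fold change of Ikzf2 turned to -0.48 (adjusted p = 0.722). The study describes the 2 DKO mice as differing in the severity of splenomegaly, and the labels do not tell which replicate came from which mouse.

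**Figure D4:**
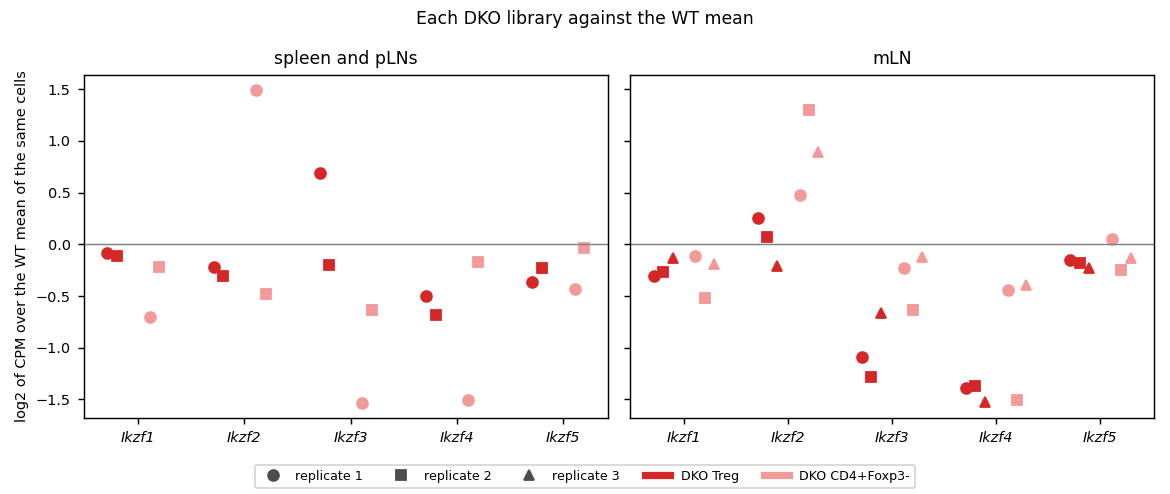
Log2 of each DKO library's CPM over the mean of the WT libraries of the same cells and tissue (y axis), by member (x axis), with marker shape for the replicate and colour for the cell type. Replicate 1 of the CD4+Foxp3- cells of spleen and pLNs lies at 1.49 for Ikzf2 and at -1.53 and -1.51 for Ikzf3 and Ikzf4, and replicate 2 of these cells in mLN at 1.30, -0.64 and -1.51.

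The last comparison asked whether the effect of genotype differed between the cell types. By the interaction term at an adjusted p of at most 0.05, 0 of 5 members were called in mLN, where 0.28% of all genes were, and 0 of 5 in spleen and pLNs, where 0.00611% were. In mLN, 3 members had an unadjusted p under 0.05: Ikzf2 (log2 -0.88 ± 0.25, edgeR, adjusted p = 0.167), Ikzf3 (-0.68 ± 0.21, adjusted p = 0.217) and Ikzf4 (-0.72 ± 0.29, adjusted p = 0.376). Libraries of Treg and CD4+Foxp3- cells with the same number in the same genotype of mLN deviated together, and with the number as a block Ikzf3 was called (-0.68, edgeR, adjusted p = 0.0342), as were 0.703% of all genes. DESeq2 called Ikzf2 (adjusted p = 0.0381) and 2.44% of all genes. Without DKO CD4+Foxp3- replicate 1, Ikzf2 was called (-1.08, adjusted p = 0.0221; background 1.4%), and without replicate 2, Ikzf3 (-0.85, adjusted p = 0.0197) and Ikzf4 (-1.05, adjusted p = 0.00839; background 2.77%). In spleen and pLNs, Ikzf3 had an interaction of 1.33 ± 0.41 on the log2 scale (edgeR, unadjusted p = 0.00728, adjusted p = 0.858), the only member there with an unadjusted p under 0.05; DESeq2 called 0 of 5. Without DKO CD4+Foxp3- replicate 2, Ikzf3 (1.84, adjusted p = 0.00817) and Ikzf2 (-1.76, adjusted p = 0.000813) were called amid 4.14% of all genes, and without replicate 1 the value of Ikzf2 was 0.22 (adjusted p = 0.865).

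**Figure D5:**
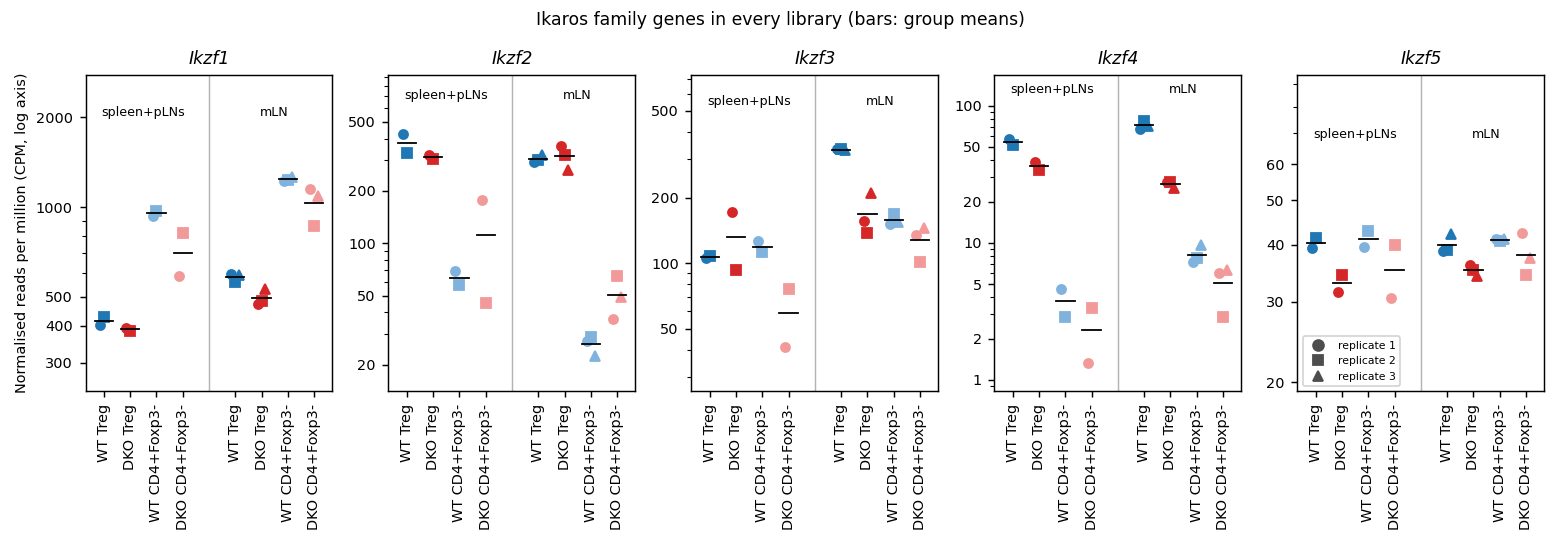
Normalised CPM (y axis, log scale) of the 5 members in all 20 libraries, with 1 panel per gene, groups along the x axis, marker shapes for replicates and bars for group means. In mLN the 3 DKO Treg libraries of Ikzf4 sit between 25.1 and 27.8 CPM, below the WT Treg libraries, while Ikzf5 stays between 30.6 and 42.8 CPM throughout.

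Genes of proteins that work with the family, or that modify it, were examined as lists. Of 13 genes of the NuRD complex, the nucleosome remodelling and deacetylase complex that Ikaros recruits, 0 were called by edgeR in each of the 10 comparisons, in which 0.00611% to 11.9% of all genes were, although 0 to 6 had an unadjusted p under 0.05. DESeq2 called 0 or 1 of them and limma on TPM 0. Between DKO and WT Treg cells of spleen and pLNs the count depended on the fit: 5 of 13 were called without DKO Treg replicate 2, where 10.4% of all genes were, and 1 with the 2 groups fitted alone, where 8.05% were. Without that library, some were also called between Treg and CD4+Foxp3- cells of DKO mice and by the interaction in spleen and pLNs. Its group then held a single library, and more of all genes were called in both comparisons than in the full fit. In mLN Treg cells the median log2 fold change of DKO over WT for the 13 genes was -0.09, beside 0.00 over all genes, and without the minimum fold 3 of 13 passed the adjusted p, where 19.4% of all genes did: Mbd2 (-0.26 ± 0.07, edgeR, adjusted p = 0.0246), Mta3 (-0.29 ± 0.09, 0.0369) and Gatad2a (0.32 ± 0.10, 0.0409). In Treg cells of spleen and pLNs, Chd4, the remodelling ATPase of the complex, was at 1.32 ± 0.34 and not called (edgeR, adjusted p = 0.0712).

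Of 5 other co-regulators, 1 was called between DKO and WT Treg cells of mLN, where 11.9% of all genes were. Ctbp2, a corepressor, had 2, 1 and 1 reads in the WT libraries and 192, 130 and 101 reads in the DKO libraries, or 0.0827 to 0.164 against 8.47 to 14.7 CPM (edgeR, adjusted p = 0.00128). In CD4+Foxp3- cells it was also higher in every DKO library, but not called. There, DKO libraries of mLN had 2, 37 and 2 reads against 0, 0 and 0 in WT (edgeR, adjusted p = 0.055). Those of spleen and pLNs had 113 and 11 reads against 1 and 0 (edgeR, adjusted p = 0.0837). DESeq2 called 1 of 5 genes of the list in each (background 5.54% and 2.3%). Treg libraries of spleen and pLNs had 0 and 5 reads in WT and 144 and 26 reads in DKO mice, and Ctbp2 was not called (edgeR, adjusted p = 0.0702). Of this list, 2 of 5 genes were called there by DESeq2 (background 3.96%), with the 2 groups fitted alone (8.05%) and without DKO Treg replicate 2 (10.4%).

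Of 5 genes of the cereblon ubiquitin ligase, through which thalidomide-type drugs mark Ikaros and Aiolos for degradation in human cells, 1 was called in that comparison (background 11.9%). Crbn, the substrate receptor, was at 133, 152 and 139 CPM in WT and at 75.4, 103 and 88.8 CPM in DKO Treg libraries of mLN (log2 fold change -0.66 ± 0.11, edgeR, adjusted p = 0.00158). The call was lost without DKO Treg replicate 1 and with limma on TPM, where the adjusted p stayed at 0.018 or below but the fold was under the minimum. Crbn in spleen and pLNs was at 168 and 175 CPM in WT Treg libraries against 83.2 and 113 CPM in DKO ones (log2 fold change -0.81 ± 0.21, edgeR, adjusted p = 0.0706). Of the 5 genes, 1 was called there by DESeq2, 1 with the 2 groups fitted alone and 2 without DKO Treg replicate 2, against the same background shares.

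Of 13 genes described as controlled by Ikaros family proteins in T cells, 1 was higher and 2 lower in DKO than in WT Treg cells of mLN (background 11.9%), and the median of the list was -0.35. Bcl6, the transcription factor of follicular T cells, rose from 27.7 to 85.3 CPM on average (log2 fold change 1.62 ± 0.22, edgeR, adjusted p = 0.000464). Il2ra, the high-affinity receptor chain for IL-2, fell from 761 to 351 CPM (-1.12 ± 0.23, adjusted p = 0.00516) and Prdm1, which encodes Blimp-1, from 35.7 to 14.2 CPM (-1.33 ± 0.31, adjusted p = 0.0092). All 3 calls held in 15 of 15 alternatives. In DKO against WT, 0 of the 13 were called by edgeR in Treg cells of spleen and pLNs or in CD4+Foxp3- cells of either tissue, and 0 by the interaction; 1 to 6 had an unadjusted p under 0.05 in these comparisons, DESeq2 called 0 or 1 and limma on TPM 0. The background was 1.74% for spleen and pLN Treg cells, 0.819% (spleen and pLNs) and 3.43% (mLN) for CD4+Foxp3- cells, and 0.00611% and 0.28% for the interactions. In Treg cells of spleen and pLNs, 6 of 13 were called with the 2 groups fitted alone (8.05% of all genes) and 2 without DKO Treg replicate 2 (10.4%), and for CD4+Foxp3- cells 6 of 13 were without DKO CD4+Foxp3- replicate 2 (16.9%).

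Between Treg and CD4+Foxp3- cells of WT mLN, 3 of the 13 genes were higher and 2 lower in Treg cells (background 10.1%). Il2ra stood at 761 against 16.2 CPM (5.55 ± 0.28, edgeR, adjusted p = 1.32e-07), Prdm1 at 35.7 against 8.62 CPM and Il10 at 20 against 0.434 CPM. Il7r, the IL-7 receptor chain, stood at 120 against 434 CPM (-1.86 ± 0.28, edgeR, adjusted p = 0.000681) and Dntt at 1.58 against 16.7 CPM. The counts were 1 higher and 4 lower in DKO mLN (background 11.2%), 1 higher and 4 lower in WT spleen and pLNs (background 4%), and 1 higher and 5 lower in DKO spleen and pLNs (background 3.77%). In these last 2 comparisons the calls of Tbx21 and Il7r each held in 4 of 13 alternatives, and that of Il2ra in 13 of 13. Il2 and Dntt each held in 9 of 13 in WT and in 10 and 12 of 13 in DKO mice, where Ifng held in 9. In DKO mLN, Tbx21 held in 7 of 15 and Il2 in 9 of 14, and Il2ra, Il7r and Dntt in 15 of 15.

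The genes whose log2 CPM followed each member most closely were ranked over 7489 genes by the lower of the Pearson correlations over 8 and 12 libraries. The libraries fall into groups by cell type and share these groups, so the values are a description. For Ikzf1 the first 3 genes were Nfe2l2 (r = 0.994 in spleen and pLNs and 0.993 in mLN), Vipr1 and Atxn7l3. For Ikzf2 they were Dusp4 (0.969 and 0.984), Neu3 and Reep3, and for Ikzf4 they were Swap70 (0.991 and 0.981), Gpr83 and Ift80. Ikzf3 had weaker neighbours, led by Notch2 (0.879 and 0.913), Stim2 and Fam53b, and Ikzf5 was followed by Alg1 (0.947 and 0.951), Emp3 and Slc17a9. With Spearman's rho, 3 of these 15 names stayed. Between members, Ikzf1 and Ikzf2 were opposed (r = -0.96 and -0.99), while Ikzf3 and Ikzf4 went together more closely in mLN (0.88) than in spleen and pLNs (0.58), a difference that was not tested.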

How the data were processed

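RNA-seq of sorted Treg and CD4+Foxp3- cells was used. The authors prepared stranded mRNA libraries, mapped 50-base single-end reads to mm9 with TopHat2 2.1.1 and assigned reads to RefSeq genes by strand with featureCounts (Subread 1.4.3-p1). They deposited raw counts and TPM values in 1 table of each for spleen and pLNs and for mLN. How the authors computed the deposited TPM was not given in the sources used here. TPM served for comparing genes with each other.

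Counts were tested per table with the quasi-likelihood test of edgeR 4.0.16 (R 4.3.3), with TMM scaling, the 4 groups in 1 fit and genes of at least 1 read (16357 of 16740 genes tested in spleen and pLNs, 16784 in mLN). All interaction calls used the adjusted p alone. Intervals are 95% from the fit. Depth was 9998478 to 15449158 reads per library, and 3 reads correspond to 0.172 to 0.299 CPM. The lowest counts of a member, and so its largest counting error, were those of Ikzf4 in CD4+Foxp3- libraries of spleen and pLNs (21 to 61 reads). Alternatives were DESeq2 1.42.0 and its size factors, limma 3.58.1 on log2(TPM + 1) and log2(TPM + 0.1), other filters and priors, fits of 2 groups, a replicate block and each library left out. The scripts were tested on simulated data. Tables and figures were made with Python 3.11.15, pandas 2.3.3 and matplotlib 3.10.9.

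The study describes the replicates as biological, 2 per group in spleen and pLNs and 3 in mLN. No pair of libraries agreed within sampling noise. In mLN, libraries of the 2 cell types with the same number and genotype deviated together (r = 0.11 to 0.39 for 6 of 6 pairs, although DKO CD4+Foxp3- replicate 1 correlated more with DKO Treg replicate 3, r = 0.16, than with replicate 1). The stated tests fitted group means and did not use this pairing. It entered only through the replicate block among the alternatives. The 5 members, the lists and the rule for naming genes (all members, at most 6 called genes of smallest adjusted p per list, and the 3 closest genes per member) were chosen with earlier results of these data known. NuRD genes without the minimum fold, Chd4, Il21 and Cxcr5 were named after their values were seen. Promoter windows came from RefSeq and were found for 2 of 5 members.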

Additional observations from a re-analysis of the deposited data

Results flagged for a closer look

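Ikzf3 was singled out because its libraries lay on opposite sides in the 2 tissues on the scaled CPM scale. In WT mice, Treg libraries were all above CD4+Foxp3- libraries in mLN (log2 fold change 1.07) and all below them in spleen and pLNs (-0.16, with overlap of the 95% interval with 0). In TPM the spleen and pLN groups overlapped, with Treg libraries at 37.8 and 38.4 and CD4+Foxp3- libraries at 44 and 37.3, so the pattern does not hold on that scale. The difference between tissues was not tested, because the tables were made separately. Within spleen and pLNs, Ikzf3 CPM in Treg libraries was below CD4+Foxp3- libraries in WT and above them in DKO mice. The interaction was 1.33 on the log2 scale, with an adjusted p of 0.858 by edgeR, and was not called.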

How the results depend on the processing

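The number of members called was within 1.5 times its stated value in 123 of 148 alternatives over the 10 comparisons. In mLN, the counts for DKO against WT in Treg cells and for Treg against CD4+Foxp3- cells in WT mice were the same in every alternative. That for DKO mice went from 3 to 4 with limma on TPM and was the same in the others. With limma, 12.7% and 15.8% of all genes were called in that comparison, beside 11.2%. For Treg against CD4+Foxp3- cells of DKO spleen and pLNs, the count went from 3 to 1 with filterByExpr, with the 2 groups fitted alone, with a replicate block and with limma on log2(TPM + 1) or log2(TPM + 0.1). In these fits 1.21% to 2.93% of all genes were called, beside 3.77%. For CD4+Foxp3- cells of mLN (background 3.43%) the count went from 1 to 2 with DESeq2 (5.54%). It went to 0 with the 2 groups fitted alone (0.0127%) or limma on TPM (0.119% and 1.57%). For the mLN interaction (0.28%) it went from 0 to 1 with DESeq2 (2.44%) or the replicate block (0.703%). With both DKO libraries numbered 1 left out, a choice made after seeing the data, a single library remained in each DKO group. The log2 interaction in spleen and pLNs was then 0.44 for Ikzf3, and turned to 0.17 for Ikzf2 and -0.50 for Ikzf4. With each library left out in turn, the counts in mLN were 0 to 2 for CD4+Foxp3- cells, amid 0.341% to 8.69% of all genes. They were 0 to 2 for the interaction, amid 0.0538% to 2.77%. In spleen and pLNs a lone library then remained in its group and was assumed to vary like the other groups. Counts there also moved, other than for DKO against WT in Treg cells, and so did the shares of all genes called.

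Signs turned only for uncalled differences. With limma on log2(TPM + 1), DKO against WT in Treg cells of spleen and pLNs gave 0.23 for Ikzf1 (0.24 on log2(TPM + 0.1)), 0.08 for Ikzf2 and 0.04 for Ikzf5. On both TPM scales Ikzf5 became 0.01 in CD4+Foxp3- cells, 0.04 and 0.07 for Treg against CD4+Foxp3- cells in WT and DKO mice and 0.03 for the interaction in spleen and pLNs, and 0.08, 0.11 (0.12 on log2(TPM + 0.1)) and 0.04 for the last 3 in mLN. Leaving out single libraries, log2 fold changes in spleen and pLNs ran from -0.20 to 0.68 (Ikzf3, genotype, Treg cells), -0.48 to 1.49 (Ikzf2, genotype, CD4+Foxp3- cells), -0.09 to 0.03 and -0.28 to 0.11 (Ikzf5, cell types, WT and DKO), and, for the interaction, -1.76 to 0.22 (Ikzf2), -0.41 to 0.92 (Ikzf4) and -0.25 to 0.13 (Ikzf5). In mLN they ran from -0.06 to 0.17 (Ikzf2, genotype, Treg cells) and -0.11 to 0.09 (Ikzf1, interaction). The cause was not tested beyond the construction of each alternative.

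The replicate block also ended the calls of Ikzf2 in WT (adjusted p = 0.0584) and of Ikzf1 and Ikzf3 in DKO spleen and pLNs, and changed no call of a member other than these and that of the mLN interaction. The study took both cell types of spleen and pLNs from the same DKO mice, and same-numbered libraries there deviated together (r = 0.336 in DKO and 0.213 in WT mice). They also did so between DKO and WT mice (r = 0.155 to 0.221), so these values do not single out a mouse, and the labels do not tie a number to one. With 2 libraries per group in spleen and pLNs, precision is limited, and depth was not varied.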
